A study of Mus musculus with 12 samples.

Results

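Protein lipoylation was described here through 10 genes, taken by symbol from the 24824 genes of the expression table. Of these, 5 make or attach lipoate (Fdx1, Fdxr, Lias, Lipt1 and Lipt2), 4 encode lipoylated proteins (Dlat, Dlst, Dbt and Gcsh), and 1 encodes the dihydrolipoamide dehydrogenase they share (Dld). The rule names them by function and uses no measured value. RNA-seq of polyadenylated RNA was made from AML12, an immortalised mouse hepatocyte line, in 4 groups of 3 libraries harvested after 24 h. Group A was untreated, group B received CuCl2 at 300 μM with the copper ionophore elesclomol (ES) at 40 nM, group C received the same Cu/ES with taurocholic acid (TCA) at 1000 μM, and group D received TCA at 1000 μM alone. The groups share 1 cell line and the labels do not tie the libraries to separate cultures, so p-values measure the spread between these libraries, which may be technical. In RNA from bulk cells, loss of some cells and less RNA per cell cannot be told apart.

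Lipoate is a sulfur-containing cofactor bound to a lysine of a few mitochondrial proteins, where it carries reaction intermediates between active sites. It is built in place: LIPT2 moves an octanoyl group from the acyl carrier protein onto the glycine cleavage protein GCSH, the iron-sulfur enzyme LIAS inserts the sulfur atoms with electrons passed from FDXR to ferredoxin, and LIPT1 passes the finished group on to the E2 subunits. Copper bound to lipoylated proteins is known to cause their aggregation, and FDX1 is known to reduce the copper carried by elesclomol.

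Recovered read totals per library were 38298857 to 39108519 in group A, 30773752 to 32002324 in B, 29115011 to 34912748 in C and 39444420 to 39782142 in D. Levels are FPKM, fragment counts divided by gene length and by library size, so genes can be compared on a per-length scale. Of 8 hepatocyte markers listed, 7 were measured, and in group A Alb, Apoa1, Hnf4a and Cps1, which define mature hepatocytes, were below 0.1 FPKM while the keratin Krt8 reached a mean of 343.5 FPKM. In group B Krt8 (182.9 FPKM) and Krt18 were lower, whereas Afp rose from 2.56 to 19.2 FPKM and Apoa1 from 0.00863 to 1.86 FPKM. Over 4 cholangiocyte markers the sum was 230.5 to 325.8 FPKM in group A and 111.3 to 139.9 FPKM in B. Krt19 fell from 267.7 to 77.3 FPKM and Epcam was also lower, while Sox9 rose from 10.6 to 50.9 FPKM. The mesenchymal marker Vim had a mean of 2080 FPKM in group A and 330.0 FPKM in group B. Summed over 5 stellate cell or fibroblast markers, of which Vim made up most, the level went from 2111 to 2327 FPKM in group A to 297.9 to 353.4 FPKM in group B. Over 3 endothelial markers the sum was 0.922 to 1.16 FPKM in group A, 6.76 to 10.5 FPKM in B and 16.5 to 19.7 FPKM in C. Most of that rise was Pecam1, with means of 0.214, 6.85 and 16.05 FPKM in groups A, B and C. Kdr also rose but stayed low, with means of 0.064, 0.316 and 0.5625 FPKM. Cdh5 overlapped between group A (0.63 to 0.899 FPKM) and B (0.642 to 1.11 FPKM), and its mean in C was 1.599 FPKM. Over 4 macrophage markers the sum was 72.5 to 102.4 FPKM in group A and between 24.1 and 37.0 FPKM in every library of the other groups; nearly all of it was Cd68, Csf1r was at 0.337 FPKM in C, and the defining markers Ptprc and Adgre1 were below 0.1 FPKM in every group. The part of these shifts in the values below was not tested. In each group replicate 2 stood apart from the other 2 libraries: read counts of pairs with it gave a chi-square of 18.2 to 51.8 per degree of freedom, and those of pairs without it 6.02 to 9.92. A fit on replicates 1 and 3 of every group, chosen after seeing this, is given where it changed a call. As a check of the treatment, the heat shock gene Hspa1a was listed at 0 in every group A library and had a mean of 442.8 FPKM in group B, the metallothionein gene Mt1 rose from 169.2 to 354.4 FPKM, and its neighbour Mt2 fell from 554.3 to 281.0 FPKM (limma, Benjamini-Hochberg adjusted p = 3.47e-13, 4.09e-07 and 7.40e-07). Mt2 was higher, with a log2 change of 0.35, under the median-ratio scaling described below.

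In untreated cells the members spanned a wide range of levels, and 3 of the 4 genes for lipoylated proteins stood above all 5 makers, while Dbt stood below Fdxr and Lias. Dld was highest at a mean of 73.6 ± 5.20 FPKM (SD, n = 3), followed by Dlst at 58.1 ± 1.06 FPKM. Dlat at 19.99 ± 1.09 FPKM and Gcsh at 18.3 ± 1.26 FPKM overlapped, as did Fdxr at 11.02 ± 0.972 FPKM and Lias at 10.1 ± 0.622 FPKM. The remaining 4 members were in the order Dbt, Fdx1, Lipt2 and Lipt1, without overlap between neighbours. In group B the order differed at the top and the bottom. Dlst now stood above Dld, with no overlap, and Lipt2 was at 0 in all 3 libraries, below Lipt1.

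**Figure D1:**
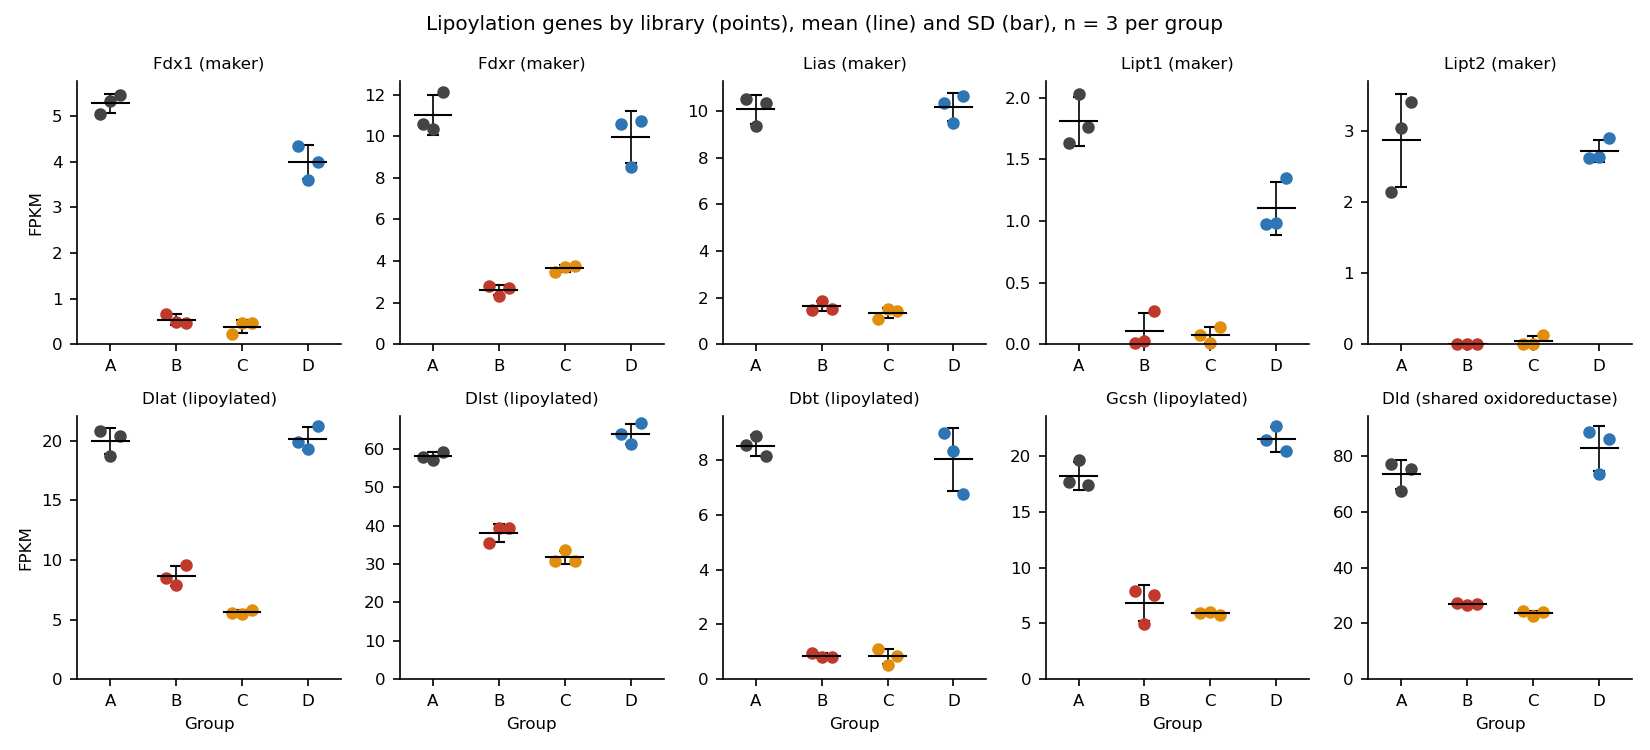
FPKM (vertical axis, linear from 0 in each panel) of the 10 lipoylation genes in groups A to D (horizontal axis), 1 point per library, with the group mean as a line and the SD as a bar, n = 3. All 10 genes sit lower in B and C than in A and D without overlap. Of all genes tested, 72% passed as lower in B than in A and 71.5% as lower in C than in D. The share of all genes without overlap was not counted. Lipt2 is at 0 in every group B library.

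The members were lower after Cu/ES, as was most of the transcriptome. All 9 members tested had a lower FPKM in group B than in A, 8 of them by more than 1 on the log2 scale. As a fold change of FPKM, the fall ran from Dlst, the smallest, to Dbt, Fdx1 and the lipoyl transferases. FPKM is a share of each library, so an absolute loss of message was not measured. Changes were taken as differences of log2(FPKM + 1), a scale that understates the fall of genes below a few FPKM, over the 10615 genes with a mean of at least 1 FPKM. Of those genes 72% were lower in B (limma, Benjamini-Hochberg adjusted p under 0.05), 53% lower also by more than 1, and 20.1% higher, and the median change of all genes was -1.10. A count of 9 of 9 is therefore read against a background in which most genes fell. Lipt1 was below the filter, and Lipt2, Fdx1 and Dbt, which are under 1 FPKM in B, passed it through groups A and D. Where each member fell relative to the other genes is given below as its change minus that median.

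The electron donors fell further than the median gene. Fdxr, the reductase that takes electrons from NADPH, was at 10.6, 10.3 and 12.1 FPKM in the group A libraries and at 2.81, 2.33 and 2.69 FPKM in group B. The groups did not overlap, with a mean 4.23-fold higher in A and a log2 change of -1.74 (SE 0.10, limma, Benjamini-Hochberg adjusted p = 3.35e-10), which is -0.64 relative to the median gene. Fdx1, the ferredoxin itself, went from 5.04, 5.33 and 5.46 FPKM to 0.669, 0.481 and 0.472 FPKM, or 9.76-fold, the larger fall of the pair. Fdx2, the second mitochondrial ferredoxin, which serves iron-sulfur cluster assembly, was measured the other way. It had 4, 7 and 12 recovered reads in group A, against 42, 35 and 27 in group B, means of 0.244 and 1.36 FPKM. The group values did not overlap. Fdx2 was below the filter, and without one its log2 change was 0.92 (limma, Benjamini-Hochberg adjusted p = 2.40e-05). In the older annotation of build GRCm38, 72.7% of its exonic bases are shared with another annotated gene on the same strand, so its reads are uncertain. Within each library the ratio of Fdx2 to Fdx1 was 0.0257, 0.0418 and 0.0696 in group A, against 2.45, 2.82 and 2.30 in group B, so Fdx2 stood below Fdx1 in the untreated libraries and above it in the treated ones.

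Lias, the synthase, fell from 10.5, 9.37 and 10.3 FPKM to 1.47, 1.86 and 1.53 FPKM, a 6.22-fold difference, and its log2 change was -0.98 relative to the median gene. The transferases were left with few reads or none. Lipt2 had 101, 146 and 164 recovered reads in the group A libraries, or 2.15, 3.05 and 3.41 FPKM, and none in any group B library. Against the level that 3 reads would give, 0.0763 to 0.0793 FPKM in those libraries, it was at least 36.2-fold lower in B. Its log2 change was -1.94 (SE 0.11, limma, Benjamini-Hochberg adjusted p = 3.69e-10), a value set by the added 1 FPKM rather than by a measured level in B. Lipt1 went from 1.64, 2.03 and 1.76 FPKM to 0.0139, 0.0276 and 0.272 FPKM, with 1, 2 and 19 reads behind the group B values. Pooled over the group, 22 reads gave 0.103 FPKM (95% exact Poisson interval 0.0644 to 0.156, counting error only) against 1.81 FPKM (1.65 to 1.98) in group A. Fitted without the filter its log2 change was -1.35 (limma, Benjamini-Hochberg adjusted p = 1.07e-06). In GRCm38, 12.8% of Lipt1's exonic bases overlap Mitd1 on the opposite strand, and whether the counting used strand is not given in the sources used here.

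The lipoylated proteins did not move as a block. Dbt, the E2 of the branched-chain ketoacid dehydrogenase, went from 8.55, 8.91 and 8.16 FPKM to 0.963, 0.799 and 0.801 FPKM. It was 9.99-fold lower, without overlap, and its log2 change of -2.36 (SE 0.12, limma, Benjamini-Hochberg adjusted p = 1.00e-10) was the lowest of the 9 members tested. Of all tested genes, 14.6% had a lower log2 change. Gcsh, which carries lipoate in the glycine cleavage system and is the first acceptor in its synthesis, went from 17.7, 19.7 and 17.4 FPKM to 7.92, 4.96 and 7.53 FPKM, with a log2 change of -1.32 (SE 0.12, limma, Benjamini-Hochberg adjusted p = 9.27e-08). Replicate 2 of group B stood below the other two. Dlat, the E2 of pyruvate dehydrogenase, was at 20.8, 18.8 and 20.4 FPKM in group A, against 8.52, 7.86 and 9.55 FPKM in group B, and Dlst, the E2 of 2-oxoglutarate dehydrogenase, was at 57.9, 57.2 and 59.3 FPKM, against 35.4, 39.4 and 39.4 FPKM. A lower log2 change than that of Dlat was found in 49.2% of genes, and than that of Dlst in 63.4%. Dld, which reoxidises the lipoyl group in all of these complexes, lay between Dbt and Dlat. It went from 77.4, 67.6 and 75.6 FPKM to 27.5, 26.7 and 27.1 FPKM, or 2.72-fold, and 40.8% of genes had a lower log2 change.

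The scaling decided the call for part of the set. With the libraries scaled by the median of gene ratios, which sets the typical gene to no change, 43.8% of genes were lower and 44% higher in B, and 5 members stayed lower: Fdx1, Fdxr, Lias, Lipt2 and Dbt. Under that scaling their log2 changes were -1.21, -0.62, -1.03, -1.46 and -1.42. Dlst was instead higher, at 0.71, and Dlat, Gcsh and Dld, at 0.12, -0.10 and -0.10, did not pass (limma, Benjamini-Hochberg adjusted p = 0.170, 0.465 and 0.248). The 4 makers tested and Dbt were thus lower under both scalings. Whether Dlat, Gcsh and Dld passed rested on the scaling, as did the sign in Dlat and in Dlst, which passed under both. Fdx1, Lipt2 and Dbt, under 1 FPKM in B, were in the test only through groups A and D. The filter therefore favoured a fall in these genes under either scaling.

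**Figure D2:**
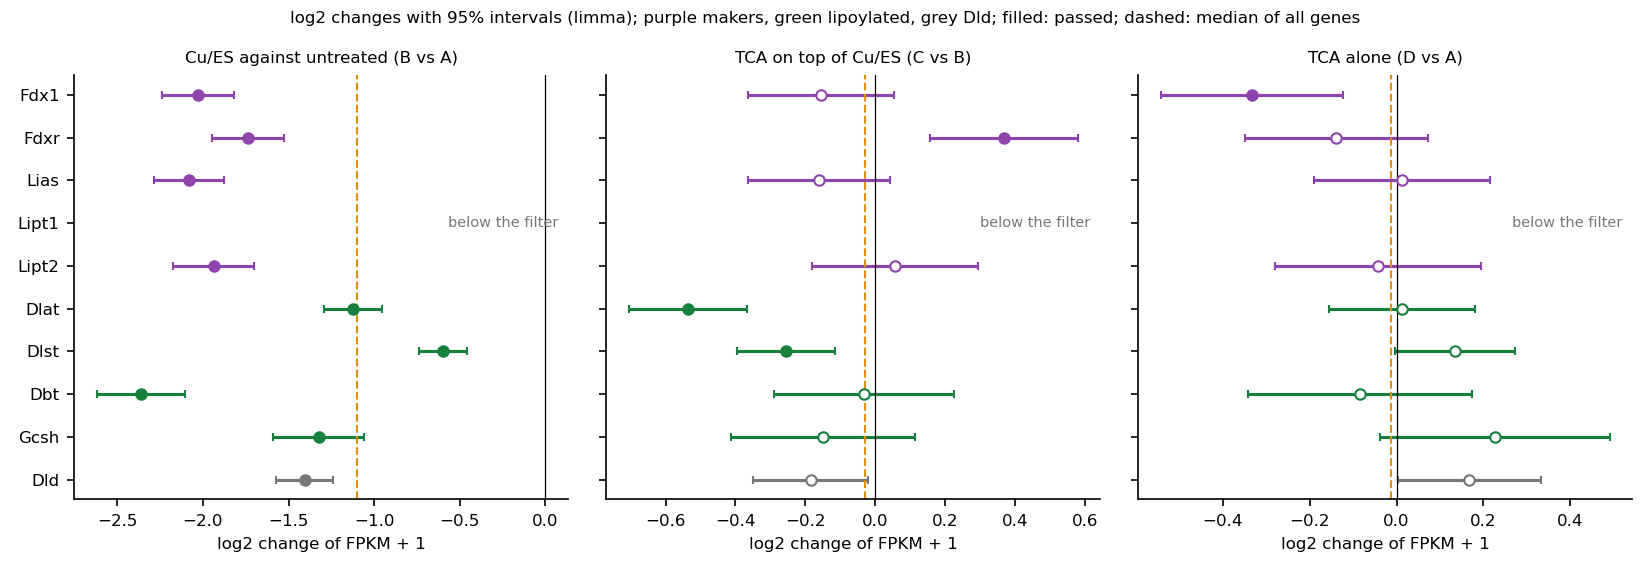
log2 change of FPKM + 1 (horizontal axis) with its 95% interval from limma for each member (rows) after Cu/ES (B vs A), after TCA on top of Cu/ES (C vs B) and after TCA alone (D vs A), on separate scales. Purple marks makers, green lipoylated proteins and grey Dld, filled points passed at an adjusted p under 0.05, the dashed line is the median of all genes tested, and Lipt1 is below the filter. After Cu/ES the 4 makers and Dbt lie farthest left, and Dlst lies right of the median.

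By class, the median log2 change of the 4 makers tested was -1.98 (-2.06 with Lipt2 at its bound) and that of the 4 lipoylated proteins -1.22, a difference of -0.76. Lipt2, Fdx1 and Dbt entered these medians through groups A and D. Within each library, the median log2 level of the 5 makers minus that of the lipoylated proteins was -1.74, -1.68 and -1.62 in group A, against -2.46, -2.29 and -2.69 in group B, without overlap. In group D, with TCA alone, it was -2.02, -2.25 and -2.13, also below group A. In all 12 libraries the median maker was Fdx1, so this measure holds the level of Fdx1 against the lipoylated proteins. The size of the difference moved with the scale: it was -0.42 after quantile normalization and -1.63 with limma-voom on recovered reads, which adds no 1 FPKM. Ratios of 2 genes in the same library do not depend on how libraries are scaled. The ratio of Lias to Dlat was 0.506, 0.4998 and 0.507 in group A, against 0.172, 0.237 and 0.160 in group B. Dbt, a lipoylated protein, showed the same pattern as the makers, with a ratio to Dlat of 0.411, 0.475 and 0.399 in group A, against 0.113, 0.102 and 0.0839 in group B. The split between makers and lipoylated proteins therefore did not hold for every member. Dld kept closer to Dlat, at 3.72, 3.61 and 3.70 times its level in group A and 3.23, 3.39 and 2.84 times in group B.

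**Figure D3:**
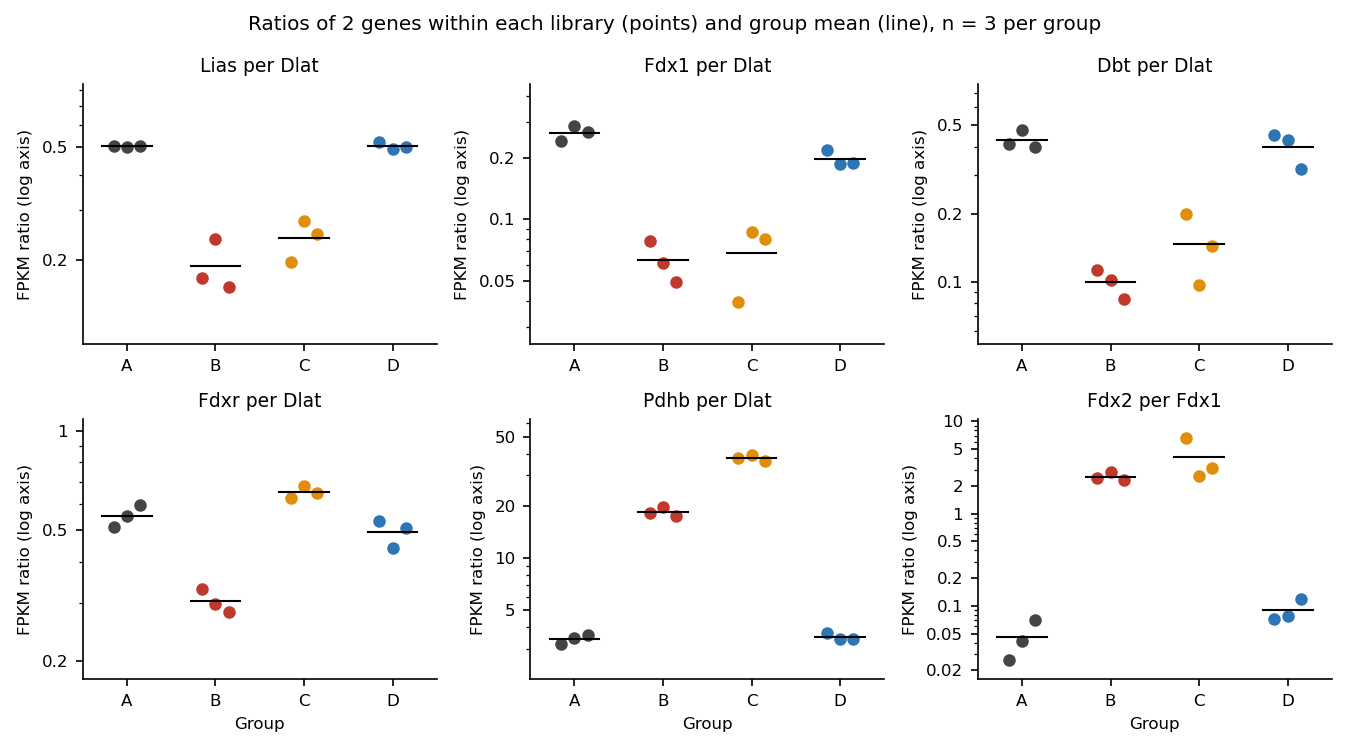
Ratio of the FPKM of 2 genes within the same library (vertical axis, log scale) in groups A to D (horizontal axis), 1 point per library and the group mean as a line, n = 3. Lias, Fdx1 and Dbt per Dlat are lower in B and C than in A, Fdxr per Dlat is lower in B (0.281 to 0.330) and not in C (0.623 to 0.676), and Pdhb per Dlat and Fdx2 per Fdx1 are higher in B and C.

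The sequences before the start sites are shown for 2 makers that fell beyond the median gene after Cu/ES and for the 2 lipoylated proteins that were lower again with TCA. They are the 250 bases before the RefSeq start in build GRCm38.p6, read 5′ to 3′ on the gene's strand: Fdx1 at chr9:51963603-51963852 (minus strand), Lias at chr5:65391247-65391496 (plus), Dlat at chr9:50659781-50660030 (minus) and Dlst at chr12:85110583-85110832 (plus). Capitals mark, on either strand, the letters searched as core of the metal response element (TGCGCNC), the heat shock element (GAANNTTC) or the NRF1 site (GCGCATGCG). The marked stretches do not overlap one another here, and other forms of these cores were not searched.
Fdx1: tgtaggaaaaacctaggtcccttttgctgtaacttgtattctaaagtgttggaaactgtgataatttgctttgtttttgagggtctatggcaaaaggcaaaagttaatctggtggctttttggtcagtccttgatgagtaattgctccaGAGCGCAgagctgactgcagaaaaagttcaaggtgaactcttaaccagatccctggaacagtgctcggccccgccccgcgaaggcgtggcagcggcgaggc
Lias: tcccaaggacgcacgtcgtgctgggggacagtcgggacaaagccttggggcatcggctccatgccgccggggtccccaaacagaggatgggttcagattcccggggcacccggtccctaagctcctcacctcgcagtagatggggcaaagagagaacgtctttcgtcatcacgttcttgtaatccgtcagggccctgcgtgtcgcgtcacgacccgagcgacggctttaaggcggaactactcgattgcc
Dlat: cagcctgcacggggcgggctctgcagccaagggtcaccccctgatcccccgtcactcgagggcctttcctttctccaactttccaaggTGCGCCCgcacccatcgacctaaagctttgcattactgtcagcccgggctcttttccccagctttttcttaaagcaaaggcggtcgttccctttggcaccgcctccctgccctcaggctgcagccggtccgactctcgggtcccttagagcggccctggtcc
Dlst: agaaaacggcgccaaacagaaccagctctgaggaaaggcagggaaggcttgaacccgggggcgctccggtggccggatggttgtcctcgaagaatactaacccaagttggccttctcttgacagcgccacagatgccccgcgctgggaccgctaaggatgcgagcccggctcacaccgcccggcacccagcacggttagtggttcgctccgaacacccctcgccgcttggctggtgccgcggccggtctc
Fdx1 and Dlat each held 1 metal response element core in the form searched, beginning at position -101 and -162 from the start. Lias and Dlst held none of the 3 motifs in these forms. RefSeq windows matched 9 of the 10 members, and 2 of the 9 held that core, against 12.5% of all 32851 windows and 21.7% of the windows of tested genes. For the other motifs both shares are given in that order. The heat shock core was in 1 member, Gcsh, and in 6.69% and 4.64% of windows, and the NRF1 letters were in 0 members and in 1.45% and 3.13% of windows. The CCAAT box (CCAAT) was in 5 members and in 33.8% and 35.7% of windows, the GC box (GGGCGG) in 7 members and in 32.7% and 58.9%, and the antioxidant response core (TGACNNNGC) in 1 member, Dlst, and in 10.2% and 12% of windows. All were searched on both strands. A member was counted if any of its windows matched, whereas the shares are of single windows. Lipt1 had 3 windows, and its first held neither the CCAAT box nor the GC box. A match is a description of letters and was not tied to binding.

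With TCA on top of Cu/ES, 3 of the 9 members tested passed, in both directions. Between groups B and C, 23.6% of genes were lower and 20.4% higher, with a median change of -0.03, and among the members 2 were lower (Dlat and Dlst) and 1 was higher (Fdxr). Dlat went from 8.52, 7.86 and 9.55 FPKM to 5.58, 5.49 and 5.82 FPKM, and Dlst from 35.4, 39.4 and 39.4 FPKM to 30.7, 33.6 and 30.8 FPKM, both without overlap. A lower log2 change than that of Dlat was found in 8.6% of genes. Fdxr went the opposite way, from 2.81, 2.33 and 2.69 FPKM to 3.47, 3.71 and 3.77 FPKM. Its groups did not overlap, and the mean was 1.40-fold higher with TCA, a log2 change of 0.37 (SE 0.10, limma, Benjamini-Hochberg adjusted p = 0.00775). With limma-voom on recovered reads this missed the threshold (Benjamini-Hochberg adjusted p = 0.0639), and its adjusted p ranged from 0.00231 to 0.0639 over the alternatives. Within libraries the ratio of Fdxr to Dlat was 0.330, 0.297 and 0.281 in group B and 0.623, 0.676 and 0.647 in group C, the latter above the 0.509, 0.552 and 0.594 of group A. The enzyme upstream of ferredoxin and the pyruvate dehydrogenase E2 were thus back at a ratio slightly above the untreated one, at lower levels of both.

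The other 6 members tested did not pass between B and C. Dld was at 24.3, 22.8 and 24.0 FPKM in group C, below every group B library, with a log2 change of -0.19 (95% interval -0.35 to -0.02, limma, Benjamini-Hochberg adjusted p = 0.0667). It passed when replicate 2 of group D was left out of the fit (limma, Benjamini-Hochberg adjusted p = 0.0347). Gcsh was at 5.98, 6.02 and 5.79 FPKM in group C, inside the range of group B. Without the low replicate 2 of group B its log2 change was -0.33 and passed (limma, Benjamini-Hochberg adjusted p = 0.00581). On replicates 1 and 3 alone 4 members were lower, Gcsh at -0.34 and Dld at -0.17 being added to Dlat and Dlst (limma, Benjamini-Hochberg adjusted p = 0.00191 and 0.0186), where 26% of genes were lower. For Dbt the groups overlapped, at 1.11, 0.530 and 0.840 FPKM in C, with a log2 change of -0.03 (95% interval -0.29 to 0.22). Lipt2 had 0, 0 and 5 reads and Lipt1 5, 1 and 10 reads in group C, levels at which a further fall was not detectable at this depth.

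With TCA alone, 1 of the 9 members tested passed. Lower genes made up 11.5% and higher genes 10.5% of those tested between groups A and D, and of the 9 members 1 was lower, Fdx1, and 0 were higher with limma or limma-voom. At an unadjusted p under 0.05, 1 was higher with limma (Dld) and 3 with limma-voom (Dld, Dlst and Gcsh). The Fdx1 libraries of group D were at 4.35, 3.61 and 3.998 FPKM, all below those of group A, with a log2 change of -0.33 (SE 0.10, limma, Benjamini-Hochberg adjusted p = 0.0263). That call was lost when any one library of group A, or replicate 2 or 3 of group D, was left out (limma, Benjamini-Hochberg adjusted p = 0.0524 to 0.0884), and also without a filter (0.0632), with TPM (0.0699), median-ratio scaling (0.101), quantile normalization (0.129) or a pseudocount of 0.1 (0.252), and on replicates 1 and 3 alone (0.0989). Lipt1 was at 0.976, 0.984 and 1.35 FPKM in group D, also below every group A library, and its log2 change without the filter was -0.42 (limma, Benjamini-Hochberg adjusted p = 0.0394), in the same fit that lost Fdx1. The intervals of the lipoylated proteins included 0. Gcsh, at 21.5, 22.7 and 20.4 FPKM in group D, stood above every group A library with a log2 change of 0.23 (95% interval -0.04 to 0.49) and Dlst had one of 0.13 (-0.0047 to 0.27). Gcsh passed without replicate 2 of group B, a library in neither group of this comparison whose spread enters the fit, and Dld without replicate 2 of group D (limma, Benjamini-Hochberg adjusted p = 0.0400 and 0.0307). On replicates 1 and 3 alone Gcsh at 0.24 and Dld at 0.19 were higher (limma, Benjamini-Hochberg adjusted p = 0.0230 and 0.0187), where 14.4% of genes were higher.

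Between Cu/ES with TCA and TCA alone (group C against D), all 9 members tested were lower in C, where 71.5% of genes were lower, 20.9% higher, and 53.3% lower by more than 1 on the log2 scale. The values ran from -0.99 for Dlst to -2.31 for Dbt, and 8 of the 9 exceeded 1 in size. With median-ratio scaling Dlst was instead higher, at 0.37, and Fdxr, at -0.04, did not pass (limma, Benjamini-Hochberg adjusted p = 3.81e-04 and 0.695). The interaction term, the change with TCA under Cu/ES minus that with TCA alone, was negative and passed for 19.8% of genes and positive and passed for 17.7%. Among the members it passed for Dlat, Dlst and Dld on the negative side and for Fdxr on the positive side. For Fdxr it was 0.51 (SE 0.14, limma, Benjamini-Hochberg adjusted p = 0.0116), and for Dld -0.35 (SE 0.11, adjusted p = 0.0212), the latter lost under TPM and quantile scaling (limma, Benjamini-Hochberg adjusted p = 0.0983 and 0.0511) and without replicate 2 of group A or replicates 1 or 3 of group D (adjusted p = 0.0503, 0.0587 and 0.0560). Gcsh, at -0.38, did not pass (limma, Benjamini-Hochberg adjusted p = 0.104), but did at -0.56 without replicate 2 of group B (adjusted p = 0.00209) and at -0.59 on replicates 1 and 3 alone (adjusted p = 9.00e-04). The comparisons share groups, so their values are not independent of one another.

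Around the 10 members, 34 other genes of the pathway were followed in lists by role, of which 27 passed the filter. After Cu/ES 21 of these were lower and 4 higher, where 72% and 20.1% of all genes tested were. Of the 21, 10 had a mean under 1 FPKM in group B and so passed the filter through groups A and D, as Pdk4 did through B and C, and the counts are therefore a description. Without a filter 25 of the 34 were lower and 6 higher, against 39.5% and 15.5% of all 24824 genes. Only 10615 of those 24824 genes reached a mean of 1 FPKM, against 27 of the 34, and their median change without a filter was -0.01. The unfiltered shares are therefore not a like background for the lists. The genes that supply octanoyl groups, which encode mitochondrial fatty acid synthesis, were lower in 7 of 7 tested, of which 4 (Mcat, Cbr4, Acsf3 and Aasdhppt) were under 1 FPKM in B. Cbr4, a subunit of the ketoacyl reductase, fell furthest, from 9.17 to 0.283 FPKM with a log2 change of -3.01, and Mecr, the enoyl reductase, fell least, at -0.90 (limma, Benjamini-Hochberg adjusted p = 7.94e-11 and 3.66e-08). With median-ratio scaling, where 43.8% of all genes were lower, 6 of the 7 stayed lower. Mecr was then at 0.13, which did not pass (limma, Benjamini-Hochberg adjusted p = 0.148).

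The iron-sulfur genes that equip LIAS with its clusters varied, in counts near the shares of all genes. Of 5 tested, 3 were lower and 2 did not pass, where 72% of all genes were lower. With median-ratio scaling 2 were lower and 2 higher, where 43.8% and 44% of all genes were. Nfu1, the late-acting cluster carrier, was at 19.7, 18.4 and 22.5 FPKM in group A, against 1.85, 1.996 and 1.82 FPKM in group B, or 10.7-fold lower, a log2 change of -2.87 (SE 0.10, limma, Benjamini-Hochberg adjusted p = 1.66e-12). Glrx5, the glutaredoxin that acts earlier in cluster transfer, was at 20.4, 18.4 and 19.8 FPKM in A and 21.4, 20.1 and 23.2 FPKM in B, with a log2 change of 0.13 that did not pass (limma, Benjamini-Hochberg adjusted p = 0.223), and passed as higher, at 1.41, with median-ratio scaling (limma, Benjamini-Hochberg adjusted p = 2.33e-08).

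The partner subunits of the lipoylated E2 proteins also varied. Of 6 tested, 4 were lower and 2 higher, a share of lower genes near the 72% of all genes. With median-ratio scaling 2 were lower and 2 higher, where 43.8% and 44% of all genes were. Bckdha, the E1 alpha subunit that works with DBT, was 5.33-fold lower in B, a log2 change of -2.02 (limma, Benjamini-Hochberg adjusted p = 2.98e-12). Pdhb, the E1 beta subunit of pyruvate dehydrogenase, was higher, from 66.7, 65.2 and 73.5 FPKM to 155.7, 154.7 and 166.8 FPKM, a log2 change of 1.21 (limma, Benjamini-Hochberg adjusted p = 1.89e-10). Pdhx, which binds DLD to the same complex and has a lipoyl domain of its own, rose from 10.9, 9.89 and 8.30 FPKM to 15.5, 16.7 and 16.4 FPKM, a log2 change of 0.69 (limma, Benjamini-Hochberg adjusted p = 4.11e-06). Subunits of 1 complex thus moved apart: the ratio of Pdhb to Dlat was 3.20, 3.48 and 3.60 in group A, 18.3, 19.7 and 17.5 in group B, and 37.8, 39.5 and 36.2 in group C. In group D it was 3.67, 3.42 and 3.43, overlapping the untreated libraries.

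The kinases and phosphatases of these complexes held the largest change among all of these genes. Of 8 tested, 6 were lower and 2 higher, again near the share of all genes. With median-ratio scaling 5 were lower and 2 higher, where 43.8% and 44% of all genes were. Pdk1, which inhibits pyruvate dehydrogenase by phosphorylation, went from 55.8, 49.2 and 56.9 FPKM to 0.408, 0.245 and 0.535 FPKM, 136.4-fold lower with a log2 change of -5.30 (limma, Benjamini-Hochberg adjusted p = 3.69e-14). Pdk4, another of these kinases, had 0 reads in every library of groups A and D and 209, 457 and 181 reads in group B, 1.91, 4.14 and 1.70 FPKM. It passed the filter through groups B and C alone, and its log2 change of 1.78 was set by the added 1 FPKM. Sirt4, a mitochondrial sirtuin reported to remove lipoyl groups, was 5.08-fold lower, a log2 change of -1.46 (limma, Benjamini-Hochberg adjusted p = 2.53e-09).

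**Figure D4:**
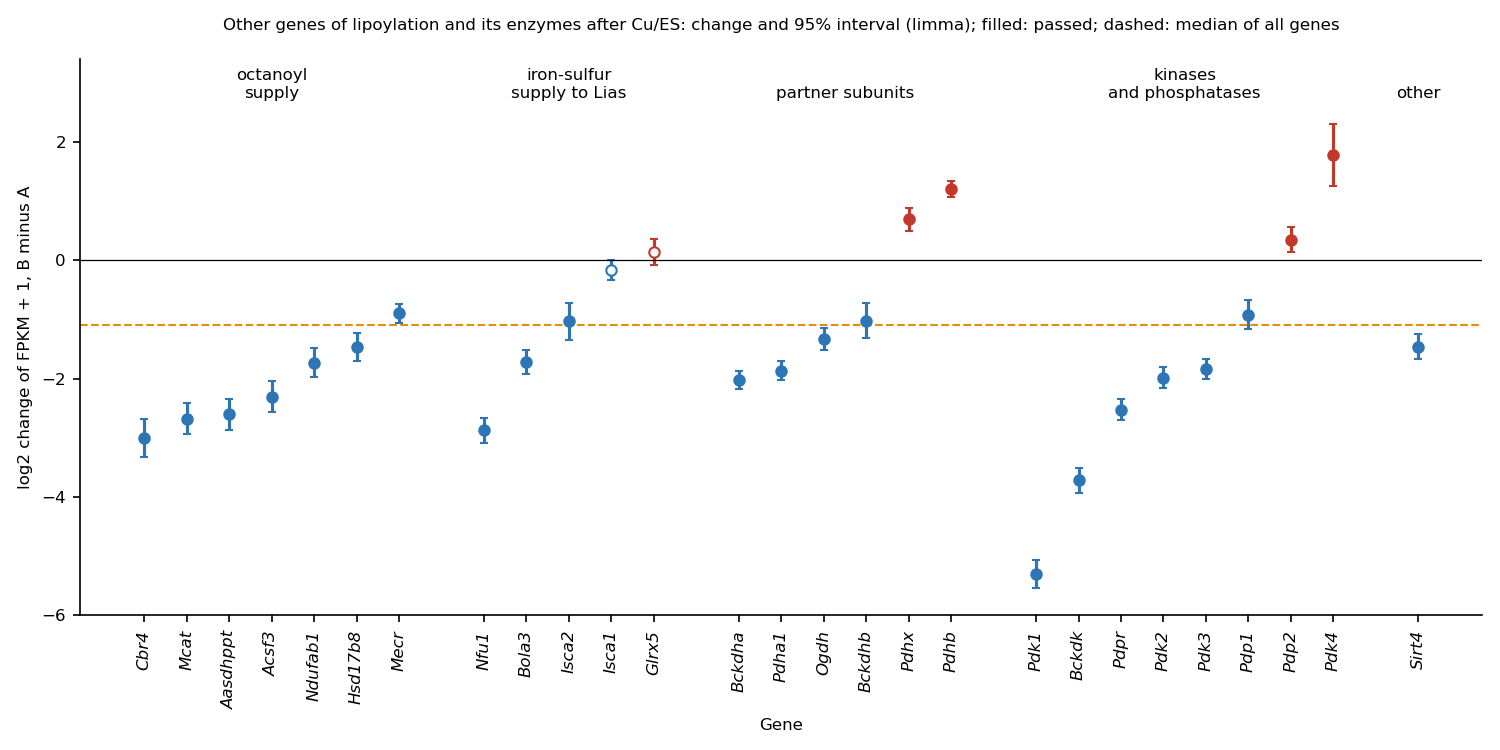
log2 change of FPKM + 1 between groups B and A (vertical axis) with its 95% interval from limma for the 27 tested genes of the lists (horizontal axis), grouped by role. Filled points passed at an adjusted p under 0.05 and the dashed line is the median of all genes, -1.10. Pdk1 lies lowest at -5.30, and Pdk4, Pdhb, Pdhx, Pdp2 and, without passing, Glrx5 lie above 0.

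With TCA on top of Cu/ES, 6 of the 27 list genes were lower and 8 higher, where 23.6% and 20.4% of all genes were. In the octanoyl list Ndufab1, the mitochondrial acyl carrier protein, was lower, from 5.97, 5.52 and 5.52 FPKM in B to 1.63, 2.59 and 2.65 FPKM in C, a log2 change of -1.04, whereas Mcat, the malonyl transferase, was higher at 0.75 (limma, Benjamini-Hochberg adjusted p = 1.19e-05 and 2.39e-04). Mecr, also lower in that list, went from 2.23 to 0.917 FPKM, 2.43-fold, with a log2 change of -0.75 (limma, Benjamini-Hochberg adjusted p = 6.78e-06). In the iron-sulfur list Isca2 was lower at -0.42 and Glrx5 higher at 0.30 (limma, Benjamini-Hochberg adjusted p = 0.0294 for each). The other lower gene of that list, Bola3, named after its values were seen, went from 0.444 to 0.143 FPKM, 3.11-fold, with a log2 change of -0.34 (limma, Benjamini-Hochberg adjusted p = 0.0101, at most 0.0437 over the alternatives). Among partner subunits 4 of 6 were higher and 1 was lower. The largest rise was that of Bckdhb at 0.44 and the fall was that of Pdhx at -0.54 (limma, Benjamini-Hochberg adjusted p = 0.0174 and 2.91e-04). Pdhx was thus lower together with Dlat and Dlst. Without the filter Isca2, Glrx5 and Bckdhb did not pass (limma, Benjamini-Hochberg adjusted p = 0.0979, 0.0780 and 0.0596), nor did Isca2 with median-ratio scaling (0.0736), quantile normalization (0.0564) or limma-voom (0.0668), or Glrx5 with quantile normalization (0.0887). Of the kinases and phosphatases, Pdk3 was lower at -0.28 and Pdp2 higher at 0.44 (limma, Benjamini-Hochberg adjusted p = 0.0145 and 2.95e-03).

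The genes whose pattern over the 4 groups lay nearest to 2 of the members were found by the distance between their mean log2 differences from group A, over 10615 genes. Nearest to Fdx1 were Zfp90, Mkrn2 and Vamp5, at distances of 0.05 each, and nearest to Dlat were Cyb5a, Sh3rf1 and Ndufa3, at 0.02, 0.03 and 0.04. Cyb5a, which encodes cytochrome b5, had differences of -1.11, -1.66 and 0.02 in groups B, C and D, beside -1.12, -1.66 and 0.01 for Dlat. No other member was among these 6 genes.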

How the data were processed

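The authors deposited FPKM values (fragment counts divided by gene length and library size), 1 column per library, for 24824 genes. Per the labels, fastp, HISAT2 and HTSeq were used with GRCm39, with no versions; the annotation and the strand setting are not given in the sources used here. FPKM is a share of each library, so a fall of most genes lowers values relative to the rest only, and total RNA was not measured. Reads were recovered from the spacing of low FPKM values: in 22212 of 22212 genes above 0 in at least 2 libraries, values were whole multiples of 1 read within 0.02. Multiples were tried until 1 fitted, so for genes above 0 in only a few libraries a fit was nearly certain. For those genes the count does not test the recovery.

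log2(FPKM + 1) of genes with a mean of at least 1 FPKM was fitted with limma 3.58.1 (R 4.3.3, mean-variance trend) over 12 libraries and 4 group terms, leaving 8 residual degrees of freedom. P-values were two-sided and Benjamini-Hochberg adjusted over all 10615 genes. Exact permutation tests of 3 libraries against 3 cannot go below p = 0.1. The fit was also run on simulated reads in which few genes changed, in both directions. That simulation held no fall of most genes, so it does not cover the setting of groups A and B. Alternatives were another pseudocount (0.1), no filter or one at 5 FPKM, TPM, median-ratio and quantile scaling, limma-voom on recovered reads, no trend, only the groups compared, the replicate block, each library left out and, chosen after seeing the data, replicates 1 and 3 only. Tables and figures were made in Python 3.11.15. The members and lists were chosen with earlier results of these data known. Named are all members, per list and comparison the largest rise and fall, Fdx2, Pdhx, and the 3 genes nearest to Fdx1 and Dlat; Mecr (the smallest fall of its list) and Bola3 were added. Exon overlaps came from GENCODE vM21 (GRCm38), and promoter sequences from RefSeq (GRCm38.p6).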

Additional observations from a re-analysis of the deposited data

Results flagged for a closer look

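The change with TCA differed between cells with and without Cu/ES in 4 members, by the interaction term of limma with Benjamini-Hochberg adjustment. It was 0.51 for Fdxr (adjusted p = 0.0116), -0.55 for Dlat (adjusted p = 0.00196), -0.39 for Dlst (adjusted p = 0.00489) and -0.35 for Dld (adjusted p = 0.0212). In Fdxr the 3 libraries of group C were above those of group B, whereas groups D and A overlapped. In Dlat, Dlst and Dld every group C library was below every group B library, and in Dlat and Dld groups D and A overlapped. The test of single libraries for one far from its group was not run on groups of 3. On replicates 1 and 3 alone these 4 terms also passed.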

How the results depend on the processing

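Of 1011 single-member log2 changes recomputed under the alternatives, 973 kept their side of the threshold, 22 no longer passed and 12 newly passed. Among the 973, changes that passed in neither fit were counted as kept whatever their direction. Dbt between C and B, for example, was at -0.03 and at 0.0072 with quantile normalization. The other 4 turned direction where the main or the alternative fit passed. The 4 were Dlat (0.12) and Dlst (0.71) between B and A and Dlst (0.37) between C and D under median-ratio scaling, and Fdxr (0.053) between C and D under quantile normalization; the median-ratio scaling sets the median gene near 0 by its construction. That scaling left 5 members lower and 1 higher between B and A, and made 1 higher between C and D. Between C and B, limma-voom left 0 members higher, with 1 at an unadjusted p under 0.05. Between D and A, 0 members were lower with a pseudocount of 0.1, a filter at 5 FPKM, TPM, median-ratio or quantile scaling (1 at an unadjusted p under 0.05 with each of these 3 scalings, 0 with the first 2 alternatives), and 1 was higher with only the groups compared; on replicates 1 and 3 of every group, an alternative chosen after seeing the data, 4 members were lower between C and B, and 0 lower (1 at an unadjusted p under 0.05) and 2 higher between D and A; leaving out 1 library gave 0 to 1 lower and 0 to 1 higher. The median change of makers minus that of lipoylated proteins between B and A was -1.50 with a pseudocount of 0.1, -1.11 with TPM, -1.13 with median-ratio scaling, -0.42 with quantile normalization and -1.63 with limma-voom. Between C and D it was -1.15, -0.69, -0.73 and -1.31 with a pseudocount of 0.1, TPM, median-ratio scaling and limma-voom. Between C and B it was 0.36 with the filter at 5 FPKM, which removes Fdx1, Lipt2 and Dbt from the test, and between D and A it ranged from -0.26 to -0.11 with 1 library left out. The cause of the other shifts was not tested.

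The labels tie no libraries across groups by replicate number. Deviations from the group means correlated between same-numbered libraries with r from -0.17 to 0.58 (mean 0.125, against -0.059 for other numbers), over 0.1 in all 3 pairs of groups A and B and in 1 or 2 of 3 pairs of any other groups. With the replicate block 9 members were lower between B and A, and 3 between C and B, Dld being added (limma, Benjamini-Hochberg adjusted p = 0.0264). It moved no other call among the members. Depth limits the lowest members: Lipt1 and Lipt2 rested on 0 to 19 reads per library with Cu/ES, and Fdx1 on 22 to 73.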
